A study of Rattus norvegicus with 6 samples.

Results

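The tumor cell lines Amy and JA, both raised from reflux-induced tumors of the rat esophagus, were compared with each other through the reference they shared. Each line had been hybridized against a pool of 2 normal rat esophageal cell lines mixed in equal parts, on 2 two-colour cDNA arrays: on one the line carried Cy3 and the pool Cy5, and on the other the dyes were exchanged. These 4 arrays, of 6 in the series, were used; the remaining 2 held JB, another reflux-induced tumor line, against the same pool and served only to place a further line beside Amy and JA. Within each dye orientation the log2 ratio of JA was subtracted from that of Amy, so that the pool and any dye bias common to both lines dropped out. The labels gave no strain, sex, passage or tumor stage for any line, and each line is a single culture as far as they say. Of 3158 named genes measured, 38 (1.2%) differed between Amy and JA by at least 1 on the log2 scale, which is 2-fold, with the same sign in both orientations. Of these, 16 were higher in Amy (0.507% of named genes) and 22 were lower (0.697%).

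Reflux of gastric and duodenal contents injures the squamous lining of the esophagus, and in rats reflux produced by surgery leads to esophageal tumors. Cell lines raised from different tumors of one model can differ in growth control, in the matrix they secrete and in how much squamous or glandular character they retain. A log ratio against a common pool gives a relative level for each line, and the difference of 2 such ratios compares the lines directly.

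The values were the deposited log ratios, averaged over the spots of a gene, and the base of the logarithm, not stated, was taken as 2. They are written as tumor line over pool. The labels do not state this direction; it was judged likely from the order of names in the sample titles, and the opposite direction would exchange "higher in Amy" and "lower in Amy" throughout. The 2 arrays of a line are a dye swap, so Amy and JA were each 1 sample. No test between them is possible, and the SD given with each difference is that of the 2 dye orientations (n = 2), a technical error only. The genes were selected by size, so their sizes are a description.

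The 2 lines had similar ratios to the pool. Across named genes, which are not independent replicates, JA and Amy correlated at 0.921 in the Cy3 orientation (tumor lines in Cy3) and at 0.913 in the Cy5 orientation. The 2 arrays of JA correlated at 0.877 and those of Amy at 0.924. Correlations between lines are within 1 orientation and keep any dye bias the lines share. Those within a line cross the orientations, so the 2 kinds cannot be compared directly. The difference between Amy and JA had the same sign in both orientations in 2188 genes (69.3%), 963 higher (30.5%) and 1225 lower (38.8%) in Amy, with a correlation of 0.419 between the orientations across genes. A gene's difference varied between orientations with an SD of 0.391, and its SD over genes was 0.483 in the Cy3 orientation and 0.531 in the Cy5 orientation. A size of 1 was reached by 128 genes in the first and 180 in the second; in 9 genes it was reached in both orientations with opposite signs, against 38 with the same sign. The other pairs of lines stood further apart by the same rule: 159 genes (5.03%) for Amy against JB and 117 (3.7%) for JA against JB. These comparisons share arrays with that of Amy and JA.

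**Figure D1:**
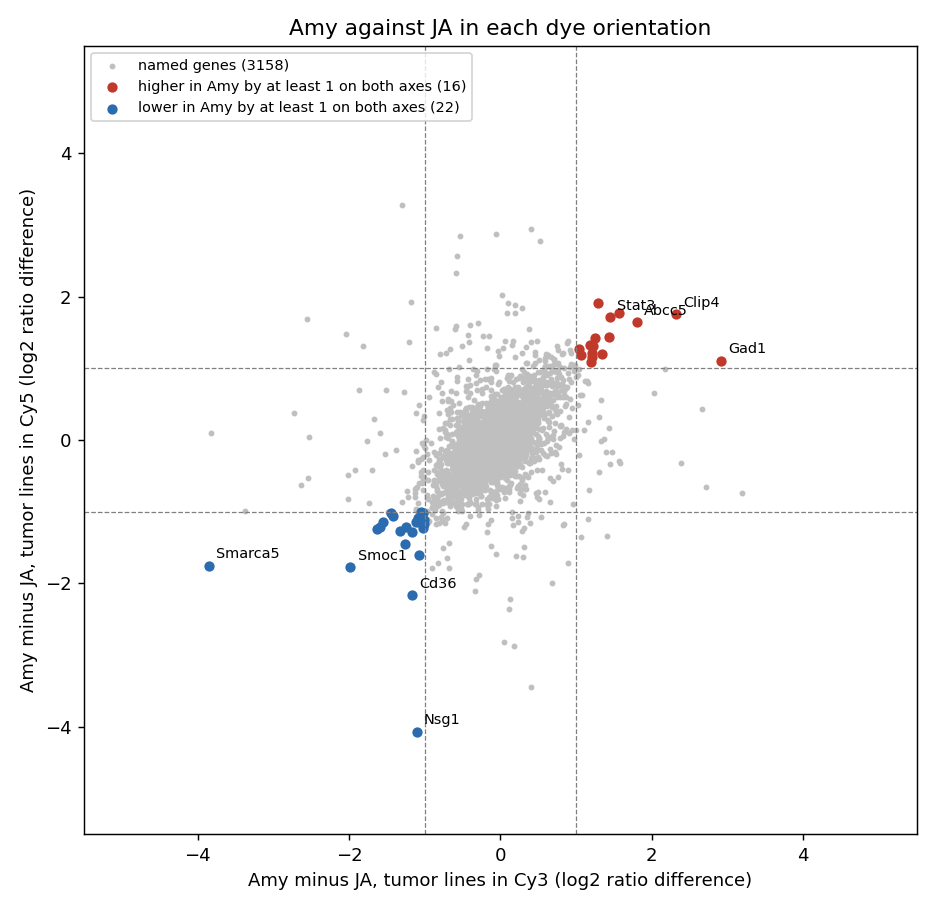
Difference in log2 ratio, Amy minus JA, for each of 3158 named genes (points), with the tumor lines in Cy3 on the x axis and in Cy5 on the y axis; dashed lines mark a size of 1. The 16 genes higher and 22 lower in Amy by at least 1 on both axes lie in the upper right and lower left corners, with Gad1, Smarca5 and Nsg1 far from the diagonal.

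Among the genes higher in Amy were 2 signal transducers. Stat3 encodes the transcription factor that carries signals of the interleukin-6 family of cytokines to the nucleus. Its log2 ratio to the pool was -2.28 (line in Cy3) and -2.71 (line in Cy5) in JA and -0.83 and -0.99 in Amy, a difference of 1.58 ± 0.20 or 2.99-fold. Both lines were thus below the normal pool, JA by more. In JB the gene was lower still, at -5.11 and -5.40, so the 3 lines stood clear of one another. The limit given below for the low ratios of Bcl10 applies to JB here. Bcl10, an adaptor that links antigen and other receptors to NF-kappaB, was at -6.22 and -6.27 in JA and at -4.97 and -4.84 in Amy, a difference of 1.34 ± 0.12. JB, at -6.41 and -6.63, lay near JA. With arrays scaled to a common spread (median absolute deviation) the difference of Bcl10 was 0.35, below the size. For Bcl10 both lines were at -4 or lower; without spot intensities, not used here, a ratio of that size cannot be told from a bound set by a dim channel.

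Flcn and Ulk1, of nutrient sensing and autophagy, were higher in Amy. Autophagy genes were not read as a list. The measured genes with an Atg symbol did not share this direction. Amy minus JA was -0.45 (Cy3) and -0.77 (Cy5) for Atg3, -0.11 and -0.08 for Atg13, and -0.54 and 0.07 for Atg5. Flcn encodes folliculin, which acts at the lysosome surface in the signaling of amino acid supply to the kinase mTORC1. Its ratio was -1.24 and -1.33 in JA and 0.11 and -0.13 in Amy, a difference of 1.27 ± 0.10 or 2.42-fold. JB resembled JA, at -0.98 and -1.47, so Amy was the line near the level of the pool. Ulk1, the kinase that starts the formation of autophagosomes, was at -0.77 and -1.44 in JA and at 0.46 and -0.13 in Amy, a difference of 1.27 ± 0.06; JB lay between, at -0.64 and -0.42.

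Enzymes and a transporter formed the next set. Abcc5, a membrane exporter of cyclic nucleotides and other organic anions, was at -0.43 and -0.35 in JA and at 1.38 and 1.30 in Amy, a difference of 1.73 ± 0.11 or 3.31-fold. It was the clearest case of a gene at or below the pool in JA and above it in Amy, and JB, at 0.16 and -0.03, was near the pool. Aopep, an aminopeptidase, showed the same arrangement: -0.30 and -0.05 in JA, 0.03 and -0.03 in JB, and 1.13 and 1.38 in Amy, with a difference of 1.43 in both orientations. Degs1, the desaturase that makes ceramide from dihydroceramide, was at -1.92 and -1.72 in JA and at -0.86 and -0.53 in Amy, a difference of 1.12 ± 0.09. Here JA was the line apart, since JB stood at -0.36 and -0.30. Gad1, which makes the transmitter GABA from glutamate, had a difference of 2.01 ± 1.28. Its arrays disagreed with each other within a line, at -0.63 and -2.45 in JA and 2.29 and -1.34 in Amy, and the ranges of the lines overlapped; in the Cy5 orientation alone the difference was 1.11.

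Of the cytoskeletal genes, Clip4, a member of a family of microtubule-binding linker proteins, had the largest mean difference among the 16 at 2.04 ± 0.40, or 4.10-fold. It was at -4.81 and -3.88 in JA and at -2.49 and -2.12 in Amy. JB matched Amy, at -2.44 and -1.82, which sets JA apart. Gas7, a growth arrest-specific gene whose product binds actin, was arranged in the same way, at -4.47 and -4.19 in JA, -3.26 and -2.97 in Amy and -3.24 and -3.01 in JB. Its difference was 1.21 in both orientations but 0.56 with a common spread. The JA means of Clip4 (-4.34) and Gas7 (-4.33) were below -4, so the limit given for Bcl10 applies to JA in both genes.

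Lgals7 encodes galectin-7, found in stratified epithelia. It was at -6.21 and -6.47 in JA, -6.41 and -6.53 in JB and -4.64 and -4.69 in Amy, a difference of 1.67 ± 0.15, or 0.70 with a common spread. Amy was the line apart, still far below the pool. The gene was read by 3 clones that disagreed. The first gave a difference of 2.46 and the second 2.89, but the third gave -0.33. Srpx, which encodes a secreted sushi-repeat protein, was at -7.21 and -8.47 in JA and -6.02 and -7.14 in Amy, 1.25 ± 0.10 apart; with arrays scaled to a common spread its difference was -0.036, so its direction did not hold. Both genes, like Bcl10, were at -4 or lower in both lines.

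The remaining genes higher in Amy belong to RNA processing, chromatin and protein turnover. Ddx17, an RNA helicase, was at -1.42 and -1.85 in JA and -0.38 and -0.57 in Amy, a difference of 1.16 ± 0.16. Its 2 clones gave similar differences, 1.12 and 1.20. The linker histone gene H1f2 was at -0.98 and -0.50 in JA and 0.22 and 0.59 in Amy, a difference of 1.15 ± 0.08, and its 2 clones gave 1.15 and 1.14. In both genes the clones thus had 1 sign, unlike those of Lgals7. Rsrp1, an arginine- and serine-rich protein gene, differed by 1.60 ± 0.43, with JA at -2.27 and -3.60 and Amy at -0.97 and -1.70. Klhl7, which brings substrates to a cullin ubiquitin ligase, differed by 1.19 ± 0.03, but its arrays differed by 1.53 within JA and 1.57 within Amy with the dye, so the ranges of the lines overlapped when the dye was ignored.

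Of the 22 genes lower in Amy, 3 encode extracellular proteins. Timp1, an inhibitor of matrix metalloproteases, was at 0.49 and 0.88 in JA and -0.84 and -0.39 in Amy, a difference of -1.30 ± 0.04 or 2.46-fold. JB lay near JA, at 0.21 and 0.81, so Amy was the line below the pool. Smoc1, a secreted calcium-binding protein of basement membranes, was at 0.39 and 1.02 in JA and -1.59 and -0.75 in Amy, a difference of -1.88 ± 0.15 or 3.67-fold. JB, at -0.11 and -0.84, lay between. Fbln5, a fibulin needed for elastic fibers, was at -0.68 and 0.15 in JA and -1.94 and -1.31 in Amy, a difference of -1.36 ± 0.14. Its 2 clones were unequal, at -0.58 and -2.13, and only the second passed the size in both orientations.

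Odc1, Rfc4 and Mybl2, known from proliferating cells, were lower in Amy and above the normal pool in both lines. Odc1, the first enzyme of polyamine synthesis, was at 2.92 and 3.03 in JA and 1.28 and 1.79 in Amy, a difference of -1.44 ± 0.28 or 2.71-fold. JB, at 1.34 and 2.10, was closer to Amy. Rfc4, a subunit of the clamp loader of DNA replication, was at 2.75 and 2.58 in JA, 2.35 and 2.43 in JB and 1.17 and 1.37 in Amy, a difference of -1.40 ± 0.26. Mybl2, the transcription factor B-Myb that drives genes of the G2 and M phases, was at 2.13 and 2.35 in JA, 2.61 and 2.20 in JB and 1.11 and 1.34 in Amy, a difference of -1.02 in one orientation and -1.01 in the other. For Rfc4 and Mybl2 the 4 arrays of JA and JB were all above those of Amy. With a common spread the difference was -1.01 for Odc1, -1.03 for Rfc4 and -0.68 for Mybl2. None of these genes kept the size in both orientations under every scaling.

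Of 5 metabolic genes lower in Amy, 4 were above the pool in JA. Gbe1, the glycogen branching enzyme, was at 1.21 and 1.02 in JA and -0.04 and -0.19 in Amy, a difference of -1.23 ± 0.03. JB, at 1.55 and 1.15, was on the side of JA. Plpp5, a phospholipid phosphatase, was at 0.997 and 0.80 in JA, 1.09 and 0.90 in JB and -0.55 and -0.34 in Amy, a difference of -1.35 ± 0.29. Cth, which makes cysteine from cystathionine, was at 0.999 and 0.25 in JA and -0.08 and -0.88 in Amy, a difference of -1.11 ± 0.04; JB was the lowest on average, at 0.07 and -1.83. Pafah1b2, a catalytic subunit of a platelet-activating factor acetylhydrolase, differed by -1.34 ± 0.37, with JA at 1.41 and 2.41 and Amy at 0.34 and 0.81. The fatty acid receptor Cd36 was at -5.93 and -6.78 in JA and -7.10 and -8.94 in Amy, a difference of -1.67 ± 0.70 (-2.95 with a common spread), and was the only one of the 22 at -4 or lower in both lines.

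Signaling and transport genes made up a further part. The sodium-glucose cotransporter Slc5a2 was at 2.89 and 3.17 in JA, 3.59 and 3.74 in JB and 1.86 and 1.94 in Amy, a difference of -1.13 ± 0.15 (-0.66 with a common spread), so all lines exceeded the pool and Amy the least. Gng2, a G protein gamma subunit, had the same order, at 2.09 and 2.18 in JA, 2.41 and 2.61 in JB and 0.99 and 1.10 in Amy (-1.09 ± 0.0062). Rap1gap, which switches off the small GTPase Rap1, was at 2.01 and 2.02 in JA and 0.56 and 0.995 in Amy (-1.24 ± 0.30). Cdc42ep5, an effector of the small GTPase Cdc42, was at 2.37 and 1.82 in JA and 1.37 and 0.70 in Amy (-1.06 ± 0.08). These 4 genes shared the pattern of a ratio above the pool on every array, with both Amy arrays below both JA arrays. With a common spread Gng2 differed by -0.78, Rap1gap by -0.97 and Cdc42ep5 by -0.76, so they too fell below the size.

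Among regulators of transcription and chromatin, Tle1, Ppp1r10 and Smarca5 were lower in Amy, whereas Stat3 and H1f2 were higher. Tle1, a Groucho-family corepressor, was at 0.91 and 0.71 in JA, 0.83 and 0.93 in JB and -0.51 and -0.35 in Amy, a difference of -1.24 ± 0.25. Ppp1r10, a nuclear targeting subunit of protein phosphatase 1, was at 1.52 and 1.56 in JA and 0.41 and 0.42 in Amy, a difference of -1.13 ± 0.02. In this gene JB, at 0.34 and 0.13, was with Amy, and JA stood apart. Smarca5, a nucleosome-remodeling ATPase, had the largest mean difference of all 38 genes, -2.80 ± 1.48, but 1 array stood far from the others: JA was at 4.72 in the Cy3 orientation but at -0.08 in the other, while JB was at 0.08 and 0.25. The arrays of Amy were at 0.87 and -1.84, and the ranges of the lines overlapped. In the Cy5 orientation alone the difference was -1.75, and passing the size there was required by the choice of genes. Nsg1, a neuronal endosome protein, was also uneven, at 1.56 and 2.85 in JA and 0.45 and -1.21 in Amy (-2.59 ± 2.10), with a difference of -1.10 in the Cy3 and -4.07 in the Cy5 orientation. The differences of its single spots ran from -6.78 to -0.03.

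The last 3 were Cd83, Lsp1 and Usp25. Cd83, a surface protein best known from mature dendritic cells, was at -0.03 and 0.27 in JA, -0.29 and 0.15 in JB and -1.20 and -1.01 in Amy (-1.23 ± 0.08). Lsp1, an actin-binding protein first found in leukocytes, was at -2.01 and -1.48 in JA, -1.45 and -1.52 in JB and -3.01 and -2.65 in Amy (-1.09 ± 0.12). Of the leukocyte markers set out for this comparison 8 of 9 were measured and none was past the size of 1; their summed ratios were -21.7 on both JA arrays and -22.0 and -23.9 on the Amy arrays. In RNA of whole cultures fewer cells of a type and less RNA per cell cannot be told apart, and the part of other cell types in the values of Cd83 and Lsp1 was not tested. Usp25, a deubiquitinase, was at 1.25 and 1.56 in JA and 0.20 and 0.55 in Amy (-1.03 ± 0.03, or -0.85 with a common spread).

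**Figure D2:**
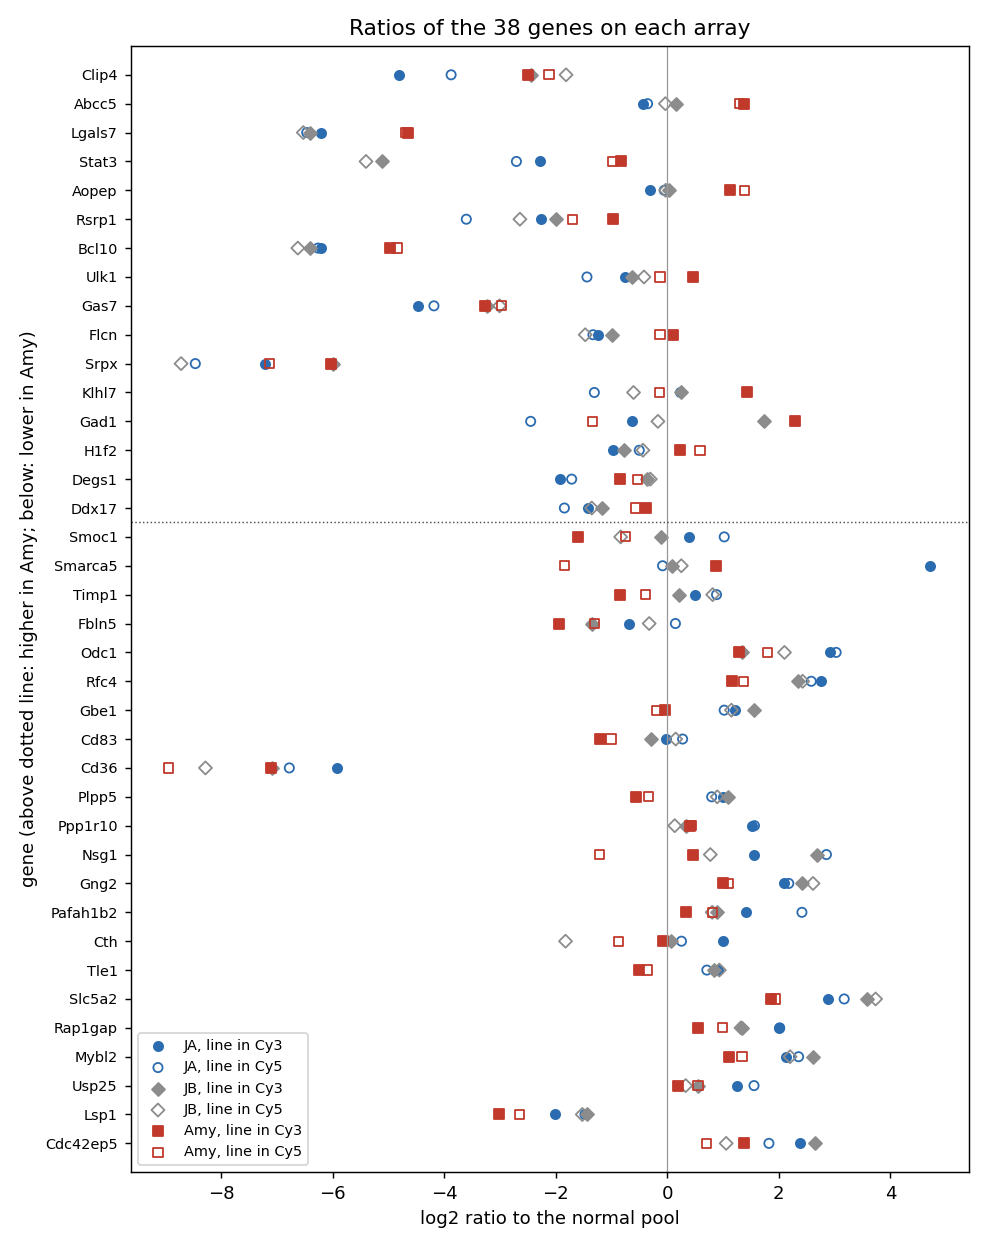
Log2 ratio to the normal pool (x axis) of the 38 genes (y axis) on each of 6 arrays; circles are JA, diamonds JB and squares Amy, filled with the line in Cy3 and open with the line in Cy5. Above the dotted line are 16 genes higher in Amy and below it 22 lower in Amy. The arrays of JA and Amy overlap in Klhl7, Gad1 and Smarca5. In the other genes the choice by size favours arrays that do not overlap.

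JB, also 1 sample, was set beside the 2 lines in these genes. Its mean lay between JA and Amy in 23 of the 38 genes, beyond JA in 10 and beyond Amy in 5. It was nearer to JA in 25 and nearer to Amy in 13. These counts were not made over all named genes. A choice of genes with a wide gap favours a further line falling between, so nothing is read from the counts. Amy differed from both JA and JB by at least 1 in both orientations in 15 genes (0.475% of named genes): Abcc5, Lgals7, Stat3, Aopep, Bcl10 and Flcn were higher, and Timp1, Rfc4, Gbe1, Plpp5, Nsg1, Gng2, Tle1, Slc5a2 and Lsp1 were lower. JA differed from both others in 6 genes (0.19%), lower in Clip4, Gas7, Gad1 and Degs1 and higher in Cd36 and Ppp1r10. In the other 17 genes neither line met this.

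JA was below the pool on both arrays in 15 of the 16 genes higher in Amy, and above it on both arrays in 17 of the 22 genes lower in Amy. These positions come from the values that chose the genes, and a line with wider ratios is favoured at the extremes by such a choice, so nothing is read from them. The median absolute deviation over spots was 0.627 and 0.678 on the JA arrays and 0.535 and 0.552 on the Amy arrays. Whether the wider spread of JA belongs to the line or to its 2 hybridizations cannot be told apart with 1 sample per line.

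**Figure D3:**
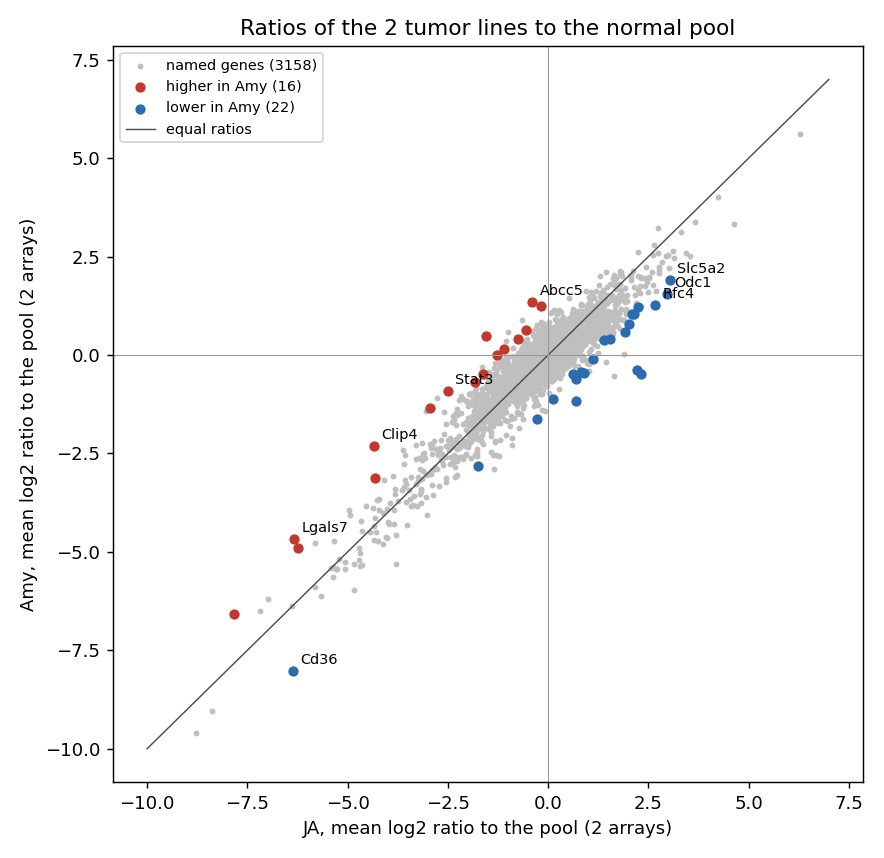
Mean log2 ratio to the normal pool over 2 arrays for JA (x axis) and Amy (y axis), with 3158 named genes as grey points and the 38 genes in colour; the line marks equal ratios. The genes higher in Amy lie mainly where JA is below 0 and the genes lower in Amy mainly where JA is above 0, including Odc1, Rfc4 and Slc5a2.

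The division of the count by direction differed between scalings. With arrays scaled to a common spread 11 genes were higher and 41 lower in Amy (21.2% higher), and with quantile normalization 17 were higher and 13 lower (56.7%), against 16 and 22 (42.1%) as deposited. In all 3 and with arrays centred on their medians, 16 of the 38 genes kept the size, 8 in each direction. When the Amy arrays had to be at least 1 away from both JA arrays whatever the dye, 7 higher and 9 lower genes remained. Every single spot of the gene passed the size in both orientations in 19 of the 38. The genes that met all of these, and were not at -4 or lower in both lines, were Abcc5, Aopep, Clip4, Flcn and Stat3 (higher) and Gbe1 and Plpp5 (lower). Each of these 7 was read by 1 clone, as were 34 of the 38. Clip4 was kept with a JA mean of -4.34, since the low-ratio filter requires both lines to be low.

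The genes nearest to the limit illustrate how sharp it is. Just inside it were Cdc42ep5, Lsp1, Usp25 and Mybl2, whose smaller difference was -1.01. Just outside it were Gypc at -1.49 and -0.9995, Dync1i2 at -0.997 and -0.998, the adhesion receptor Adgrf4 at 1.04 and 0.996, Arhgef3 at 2.17 and 0.995 and the clamp loader subunit Rfc2 at -0.995 and -1.15. With mean ratios of -5.80 in JA and -4.79 in Amy, Adgrf4 was at -4 or lower in both lines.

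Gene lists by function were read at a smaller size, 1.5-fold in both orientations, which 248 named genes reached (7.85%): 111 higher (3.51%) and 137 lower (4.34%) in Amy, with a median difference over all named genes of -0.04. Over all named genes 38.8% were below 0 in both orientations and 30.5% above, the shares to set beside the sign counts of each list. The 25 lists took in 825 of the 3158 named genes and 12 of the 38. The genes of each list share arrays and a pool and are not independent, so counts and medians are given as a description.

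The list of cell cycle and replication genes lay toward lower values in Amy. Of 32 measured, 21 were below 0 in both orientations and 5 above, against 38.8% and 30.5% of all named genes. The median was -0.35. By 1.5-fold 6 were lower and 0 higher. Besides Rfc4, these were the clamp loader subunit Rfc2 (-1.07 ± 0.11), cyclin E1 (Ccne1, -1.04 ± 0.14), the replication clamp Pcna (-0.89 ± 0.09), the primase subunit Prim2 (-0.88 ± 0.32) and the mitotic kinase Cdk1 (-0.86 ± 0.01). With the exception of Prim2, at 0.84 in JA and -0.04 in Amy, these genes were above the pool in both lines, with Ccne1 at 3.55 in JA and 2.51 in Amy and Cdk1 at 3.45 and 2.59. The median was -0.17 both with arrays scaled to a common spread and with quantile normalization, with 3 lower and 0 higher in each. Cyclin D1 (Ccnd1) was slightly higher in Amy, at 1.16 and 1.45 in JA and 1.27 and 1.73 in Amy, a difference of only 0.20 ± 0.12.

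Chaperones and stress genes lay toward lower values as well. Of 48 measured, 30 were below 0 in both orientations and 10 above, against 38.8% and 30.5% of all named genes. The median was -0.25 (-0.18 with a common spread, -0.16 with quantile normalization). By 1.5-fold 7 were lower and 0 higher. They were the stress transcription factor Atf5 (-1.01 ± 0.30), the cysteine tRNA ligase Cars1 (-0.94 ± 0.30), the mitochondrial chaperonin Hspd1 (-0.86 in both orientations), the endoplasmic reticulum chaperones Dnajb11 (-0.84 ± 0.34) and Calr (-0.82 ± 0.31), Hspa13 (-0.67 ± 0.06) and Hspa4 (-0.67 ± 0.03). In the proteasome and ubiquitin list 3 of 71 were lower and 2 higher, close to the share of all genes, while 38 were below 0 in both orientations and 12 above, with a median of -0.15. Beside Usp25 the lower genes were the proteasome activator Psme3 (-0.87 ± 0.06) and the ubiquitin-conjugating enzyme Ube2s (-0.72 ± 0.05), and the higher were Uba2, a subunit of the SUMO-activating enzyme (1.14 ± 0.34), and the deubiquitinase Usp32 (0.84 ± 0.15). The respiratory chain list, with a median of -0.15, had 1 of 43 genes past the size, Ndufa1 (0.68 ± 0.11), which was higher; none passed with the arrays centred, scaled or quantile-normalized.

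The fibroblast and extracellular matrix list had the lowest median of the 25, -0.39, with 14 of 21 genes below 0 in both orientations, 3 above, 3 lower by 1.5-fold and 1 higher. Besides Fbln5 the lower genes were the collagen Col14a1 (-0.79 ± 0.19) and Loxl1, a lysyl oxidase (-0.69 ± 0.01), and the higher gene was Srpx. With a common spread the median was -0.72 and 9 genes were lower; with quantile normalization it was -0.33. Of the 8 fibroblast markers, 7 were measured and none was past the size of 1, and their summed ratios were -33.4 and -36.7 in JA and -36.1 and -37.9 in Amy. In the smooth muscle and endothelial list 3 of 21 were lower and 0 higher, all of them actin-associated: calponin 3 (Cnn3, -1.04 ± 0.10), caldesmon (Cald1, -0.88 ± 0.03) and the tropomyosin Tpm4 (-0.82 ± 0.09). The 3 measured muscle markers and the 3 endothelial markers were within the size of 1. The cytoskeleton list had 6 of 45 lower, among them the tubulins Tube1 (-0.89 ± 0.19) and Tuba4a (-0.86 ± 0.05) and the actin-binding profilin Pfn1 (-0.68 ± 0.06). The 2 higher were gelsolin (Gsn, 0.90 ± 0.42) and the myosin Myo5b (0.80 ± 0.03). With mean ratios of -4.95 in JA and -4.05 in Amy, Gsn was at -4 or lower in both lines.

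Genes of Notch signaling, the Id family and related pathways were among those higher in Amy. In the list of TGF-beta, BMP, Wnt and Notch signaling, 6 of 38 were higher and 1 lower, with a median of 0.08. The higher genes were Tgfbi, a matrix protein named for its induction by TGF-beta (1.02 ± 0.05), the helix-loop-helix inhibitors Id2 (0.86 ± 0.14) and Id3 (0.65 ± 0.01), the receptors Notch3 (0.84 ± 0.29) and Notch1 (0.73 ± 0.19) and the Wnt receptor Fzd1 (0.83 ± 0.18). Latent TGF-beta binding protein 1 (Ltbp1) was lower (-0.88 ± 0.15). The split was 6 to 1 with quantile normalization and 5 to 3 with a common spread. The immediate early list was divided within the AP-1 family, with Jun higher (0.88 ± 0.04) and Jund lower (-0.70 ± 0.0061) in Amy; the phosphatase Dusp1 was higher too (0.71 ± 0.16). With a common spread or quantile normalization 0 genes of this list were lower. Of 38 proteases and inhibitors 4 were higher, among them the lysosomal Ctsd (0.80 ± 0.08) and Ctsc (0.75 ± 0.07), and Timp1 alone was lower, but with a common spread 2 were higher and 4 lower.

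A few genes of the epithelial and columnar lists differed by less than 2-fold. Cathepsin E (Ctse), a protease of gastric epithelium, was at -1.96 and -2.09 in JA and -1.18 and -1.17 in Amy (0.85 ± 0.10), and clusterin (Clu) differed by 0.80 ± 0.19; these were the 2 of 7 columnar genes past 1.5-fold, and 0 were lower. The median of that list, 0.12, became negative with a common spread (-0.13) or quantile normalization (-0.11). In the list of keratins, adhesion and junction genes 2 of 27 were higher, Lgals7 and cystatin B (Cstb, 0.87 ± 0.09), and the annexin Anxa3 was lower (-1.04 ± 0.11). Keratin 8 (Krt8) differed in sign between orientations, at 0.42 and -0.11, and P-cadherin (Cdh3) was at 1.84 and 1.81 in JA and 2.03 and 2.17 in Amy (0.28 ± 0.12). The tetraspanin Tspan8 differed by 0.91 in the Cy3 and 0.10 in the Cy5 orientation. Of 8 squamous markers 1 was measured, Lgals7, and of 9 markers of simple epithelium 3, so the squamous or glandular character of the lines cannot be read from these genes.

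Detoxification and redox genes lay on both sides, 4 higher and 4 lower of 56. Abcc5 was joined on the higher side by the microsomal glutathione transferase Mgst1 (1.005 ± 0.07), the thioredoxin inhibitor Txnip (0.97 ± 0.06) and Gstm2 (0.92 ± 0.30). On the lower side were the monooxygenase Fmo2 (-1.42 ± 0.84), Aldh18a1, an enzyme of proline synthesis (-0.895 ± 0.27), Txndc12 (-0.75 ± 0.09) and the mitochondrial peroxiredoxin Prdx3 (-0.69 ± 0.05). Of 107 solute carriers, pumps and channels 6 were higher and 4 lower; beside Abcc5 the higher genes included the folate transporter Slc46a1 (0.90 ± 0.16) and the calcium release channel Itpr3 (0.76 ± 0.0047), and beside Slc5a2 the lower genes included the aquaporin Aqp8 (-1.08 ± 0.30) and the cotransporter Slc12a2 (-0.77 ± 0.14).

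Immune and cytokine genes differed in few cases. Beside Stat3, the chemokine Ccl6 was higher (0.91 ± 0.03) and the chemokine Cxcl16 lower (-0.93 ± 0.03) among 25 genes of inflammation. Of 18 interferon and MHC class I genes 2 were lower, the antiviral Rsad2 (-1.34 ± 0.63) and Ifi27l2b (-0.69 ± 0.13), and 0 higher. In the leukocyte list Cd4 (0.70 ± 0.15) and the Fc receptor Fcgr2a (0.75 ± 0.05) were higher among 13, while with a common spread 1 was higher and 3 were lower. As deposited the median of this list was -0.12, with 2 genes above 0 in both orientations and 4 below. Cd4 had mean ratios of -4.54 in JA and -3.83 in Amy. In the lipid list Apold1 (0.94 ± 0.08), placed there by its symbol, and the triglyceride enzyme Dgat1 (0.67 ± 0.03) were higher and, beside Cd36, lipoprotein lipase (Lpl) was lower (-0.69 ± 0.11) of 36 genes; JB was far from both lines in Lpl, with a mean of 1.21 against -2.54 in JA and -3.23 in Amy.

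Among 62 ribosomal proteins and translation factors 3 were higher, the nucleolar Nop53 (0.97 in both orientations), Rps27 (0.92 ± 0.23) and Eif4b (0.73 ± 0.10), and 1 was lower, the translation repressor Eif4ebp1 (-0.74 ± 0.12); 28 were above 0 in both orientations and 16 below. Of 20 p53 targets and apoptosis genes Bcl10 and Gadd45g (0.77 ± 0.21) were higher; with a common spread 0 were higher and 1 was lower. Of 27 genes of glycolysis and hypoxia Gbe1 alone passed, and of 23 nervous system genes the microtubule regulator Stmn2 (1.01 ± 0.35). No gene of the growth factor and receptor list (26) or of integrins and basement membrane (17) passed. In the former, Erbb2 was at -0.08 and -0.22 in JA and 0.39 and 0.44 in Amy (0.56 ± 0.14). Among 8 peptide hormone genes angiotensinogen (Agt) was lower (-0.86 ± 0.07). The natriuretic peptide gene Nppb was far above the pool in both lines, at 6.51 and 6.05 in JA and 5.73 and 5.49 in Amy (-0.67 ± 0.16), and beta-actin (Actb) differed by -0.41 ± 0.51.

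**Figure D4:**
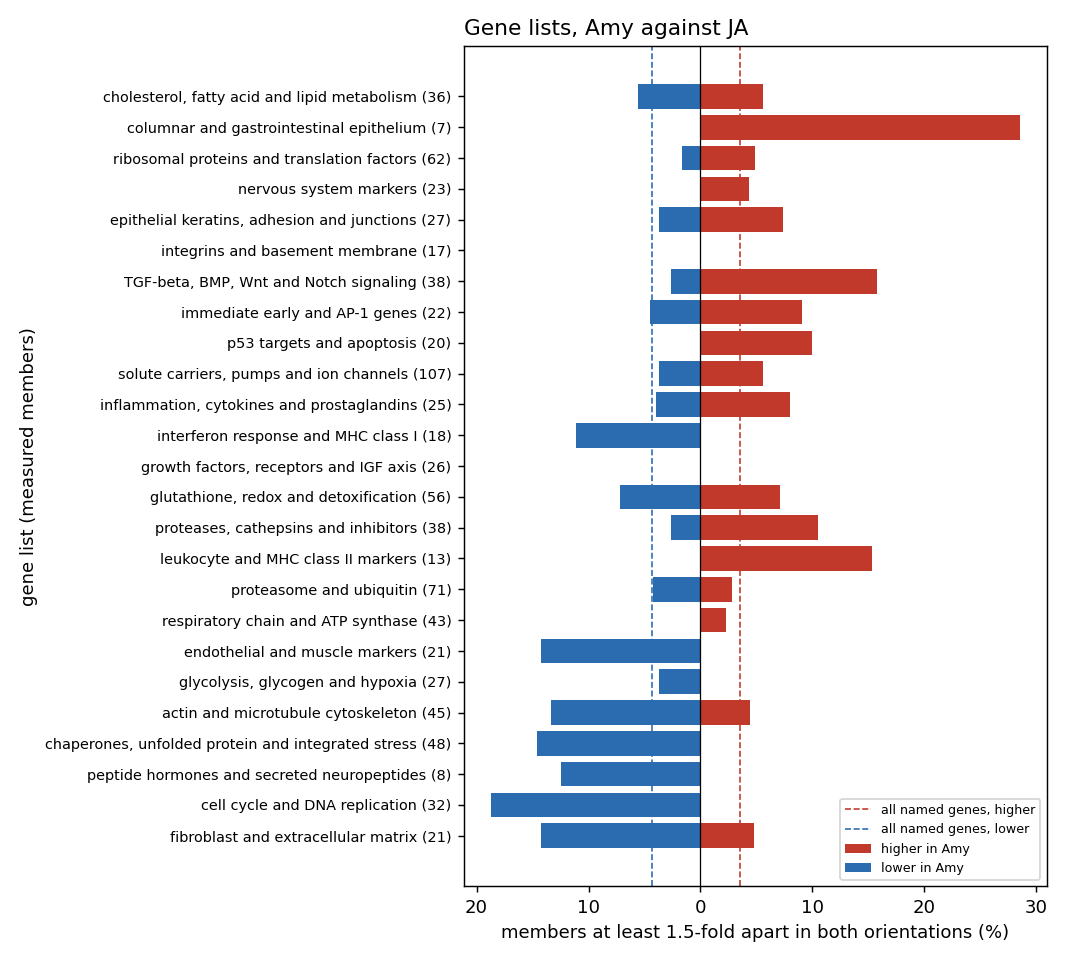
Share of the measured members of 25 gene lists (rows, with the number measured) that were higher (right) or lower (left) in Amy than in JA by at least 1.5-fold in both dye orientations, in percent; rows are ordered by the median difference. Dashed lines mark the shares of all named genes, 3.51% higher and 4.34% lower; the cell cycle and chaperone lists have bars on the lower side only.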

How the data were processed

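RNA of the tumor lines and of the pool was hybridized to 2-colour cDNA arrays of 16128 spots. The deposited values were log2 ratios, 1 per spot and array; the sources used here do not name the scanner, background correction, normalization or log base, and the lowest value, -12.7, would exceed a scanner's range in base 10. Array medians lay between -0.05 and -0.15. GEO's platform annotation gave a single symbol for 8084 spots, several for 40 and no symbol for 8004; RefSeq (GRCr8) held the gene identifier of 8076 and changed 0 symbols. The spots of a symbol were averaged, and JA was subtracted from Amy within each dye orientation, which the labels give; the gap between orientations correlated at 0.534 between JA and Amy. No test was made, since each line is 1 sample, and the number of arrays limits the precision. Named were the 15 genes per direction with the largest smaller difference, up to 4 per list and direction, and a fixed set of 14 genes, of which 9 were measured and 1, Lgals7, was past the size; the other genes of the 38, the genes named at 1.5-fold and those near the limit were added after their values were seen. The members and lists were chosen with earlier results of these data known. Alternatives were other scalings, spot medians, clone and spot agreement, a filter on low ratios, other sizes, single orientations and no pairing. Python 3.11.15, pandas 2.3.3 and matplotlib 3.10.9 were used.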

Additional observations from a re-analysis of the deposited data

How the results depend on the processing

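Centring the arrays on their medians gave 17 genes higher and 22 lower, of which 16 and 19 were shared with the values as deposited, and medians over spots gave 16 and 23. With a common spread 41 genes were lower, 9 of them shared, and with quantile normalization 13, again 9 shared. Requiring every spot to pass left 9 higher and 10 lower. A size of 1.5-fold gave 111 and 137, and a size of 2 in both orientations gave 0 and 0. With 1 orientation alone (without replicate 1 or 2), 48 to 100 genes were higher and 80 lower in either. Dropping the pairing by dye (no replicate block) left 7 higher and 9 lower. Requiring every clone to pass left 13 and 21, which are the genes read by 1 clone, where the requirement adds nothing. The genes read by several clones, 3 higher and 1 lower, did not pass. Over 655 named genes with several clones, the mean differences of the first 2 clones correlated at 0.386. Leaving out genes at -4 or lower in both lines also gave 13 and 21. The direction of each of the 38 genes held under every scaling and the spot median, except for Srpx. Its difference with a common spread was -0.036, and the cause was not tested. The same direction in either orientation was required by the choice of genes. No spot intensities were used, so the signal over background behind the largest ratios is unknown.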

Other observations

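Genes of the lysosome were not a list of their own and were set side by side after their values were seen, with no test; over all named genes 3.51% were higher by 1.5-fold and 30.5% above 0 in both orientations. Of 10 measured subunits of the vacuolar proton pump, which acidifies lysosomes, 8 were above 0 in both orientations and 0 below, with a median difference of 0.40 (0.34 with a common spread, 0.35 with quantile normalization), and 3 were higher in Amy by at least 1.5-fold: Atp6v1c2 (0.80 ± 0.10), Atp6v0e1 (0.76 ± 0.01) and Atp6v0d1 (0.71 ± 0.07). With a common spread or quantile normalization 2 were higher. The lysosomal membrane protein Lamp2 (0.99 ± 0.23) and the proteases Ctsd (0.80 ± 0.08) and Ctsc (0.75 ± 0.07) were also higher. Of the 12 lysosomal genes looked at, 6 were above 0 in both orientations and 4 below, so the group was not uniform: Ctsl differed by -0.32 ± 0.04 and Gla by -0.25 ± 0.20.

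Genes of polyamines and the methionine cycle, with Cth of cysteine synthesis, were also set together after the values were seen. Of 7 measured, 4 were lower in Amy by 1.5-fold, against 4.34% of all named genes. In both orientations 6 were below 0, against 38.8%, with a median of -0.65. The 4 lower genes were Odc1, Cth, Ahcy (-0.74 ± 0.07) and the spermidine synthase Srm (-0.65 ± 0.05). Odc1 and Cth had already been chosen for their size, so nothing is read from these shares. With a common spread or quantile normalization 2 were lower and 4 below 0, with medians of -0.36 and -0.39. Oaz1 (-0.22 ± 0.18) and Sat1 (-0.53 ± 0.29) did not pass, and Amd1 was at 0.65 and 0.05.

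Of 4022 clones without a single gene symbol, 56 were higher and 18 lower in Amy by at least 1 in both orientations (1.84%). Of the 3158 named genes 16 were higher and 22 lower (1.2%). The units differ, since clones were counted singly and a named gene could average several clones.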
